A study of Drosophila melanogaster and Drosophila melanogaster x Drosophila simulans and Drosophila simulans with 6 samples.

Results

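The genes described here are 84 D. simulans genes whose reads were at least 4-fold lower in the ovaries of interspecific hybrids than in the ovaries of the D. simulans parent. They were drawn from 14256 D. simulans features, of which 6910 had at least 5 CPM in both D. simulans libraries. CPM, a scaled count, is here the estimated count of a D. simulans gene divided by the sum over all D. simulans genes of the same library and multiplied by 1000000, so that the D. simulans RNA of a hybrid is scaled to itself. A gene was included when its higher hybrid CPM was at most 0.25 of its lower D. simulans CPM, and 1.22% of the 6910 genes met this rule. The same contrast chose the genes, so their levels in hybrid and D. simulans ovaries are a description and carry no test. Among the same 6910 genes, 12 were raised at least 4-fold, with the lower hybrid CPM set against the higher D. simulans CPM. Genes under 5 CPM in a D. simulans library were left out of both counts. Genes low in D. simulans and high in hybrids are thus missing, and the 12 and the 84 give no balance of raised and lowered genes.

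Polyadenylated RNA of ovaries was sequenced in 6 libraries, 2 from each of 3 kinds of female. The hybrids were F1 daughters of D. melanogaster Hmr2 mothers and D. simulans w501 fathers, and they carried 1 haploid set of each species. Their references were D. melanogaster Hmr2 and D. simulans w501 females. Hmr2 is an allele of Hmr, a hybrid incompatibility gene, and the line that carries it also holds a rearranged X chromosome, which the hybrids inherited from their mothers. Flies were dissected some days after eclosion. Of the hybrids, only ovaries with several ovarioles that held egg chambers were taken by the study, and the many strongly reduced ovaries were left out, so the hybrid libraries describe the better developed ovaries only.

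A fly ovary is a bundle of ovarioles, each with a germarium at its tip and a string of growing egg chambers behind it. Germ cells form the nurse cells and the oocyte, and a somatic epithelium of follicle cells surrounds them, responds to EGFR, Notch, JAK/STAT and ecdysone signals and builds the eggshell late in oogenesis. RNA of a whole ovary is a mixture of these cells, and in such bulk samples fewer cells of a type and less RNA per cell cannot be told apart.

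The libraries held 16810398 and 17101727 counts for hybrids, 19443493 and 13625547 for D. melanogaster Hmr2, and 12981002 and 22363396 for D. simulans w501. D. simulans genes took 53.6% ± 1.84 of the counts in hybrids, 2.86% ± 0.184 in D. melanogaster and 97.4% ± 0.0328 in D. simulans (SD, n = 2 each). Muscle markers stood higher in hybrids: of 23 tested D. melanogaster genes of that list, 15 rose and 0 fell, against 2.99% and 10.3% of all 8202 tested genes (edgeR quasi-likelihood test, Benjamini-Hochberg adjusted p below 0.05 and at least 2-fold), with a summed D. melanogaster level of 3647 and 3403 CPM in hybrids against 1583 and 1423 CPM in D. melanogaster. Germline markers summed to 10736 and 10616 CPM in hybrids against 9357 and 11477 CPM in D. melanogaster, so that the groups overlapped. Of 32 tested genes of the germline list 10 fell and 1 rose. Those that fell include Nos, the symbol of nitric oxide synthase rather than of the germline gene nanos, with 1.17 and 1.06 CPM in D. melanogaster. CycB alone held 4389 and 4102 CPM of the hybrid sums and 2621 and 3822 CPM of the D. melanogaster sums. The overlap therefore does not describe the germline genes as a set. Of 15 tested genes of fat body and haemocytes 6 rose and 3 fell, and those that rose included the haemocyte gene Hml, higher by 3.42 on the log2 scale (SE 0.27, edgeR adjusted p = 0.000728). The part of these differences in the results below was not tested.

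In D. simulans ovaries the 84 genes were of modest abundance. Their mean levels ran over 6.31 to 355.8 CPM with a median of 18.2 CPM, against a median of 67.5 CPM over the 6910 genes. In TPM, which also corrects for transcript length, the median was 10.9 TPM, against 33.4 TPM over the 6910. In hybrids the 84 genes had a median of 2.54 CPM, and the highest of them reached 49.9 CPM. Their hybrid median of 0.974 TPM is scaled over the transcripts of both species, unlike the CPM, and so cannot be set against the D. simulans TPM directly. The ratio of mean hybrid CPM to mean D. simulans CPM had a median of 0.139, against 1.10 over all 6910 genes. The ratio was at most one eighth for 34 genes and at most one sixteenth for 8. Summed over the 84 genes, the level was 488.9 and 435.5 CPM in the hybrid libraries, against 3022 and 3802 CPM in the D. simulans libraries.

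**Figure D1:**
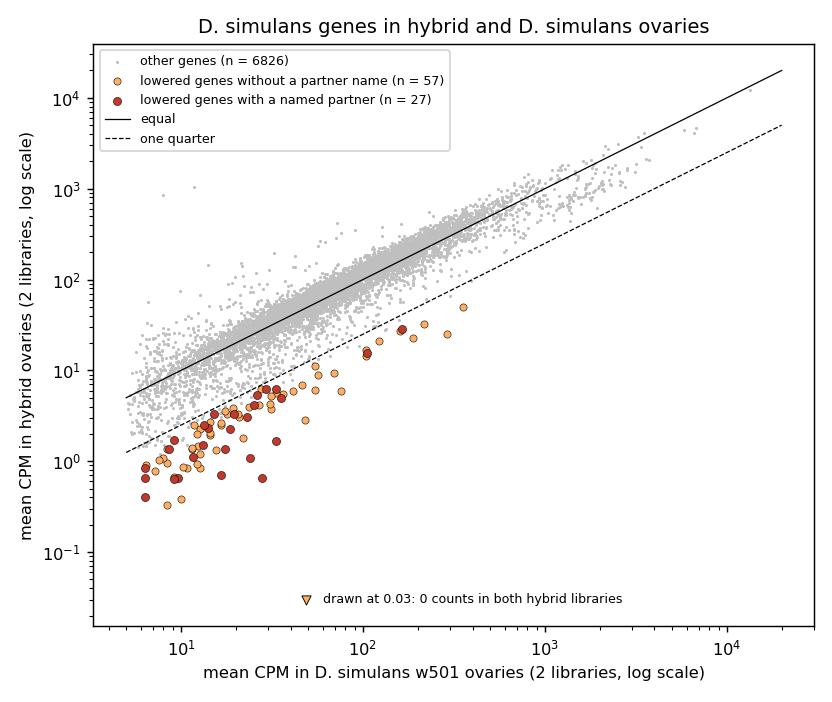
Mean CPM in hybrid ovaries (y axis, 2 libraries, log scale) against mean CPM in D. simulans w501 ovaries (x axis, 2 libraries, log scale) for the 6910 D. simulans genes with at least 5 CPM in both D. simulans libraries. Red points are the 27 lowered genes with a named D. melanogaster partner, orange points the 57 without one and grey points the other genes. The solid line marks equal levels and the dashed line a ratio of 0.25. The lowered genes lie mostly in the lower part of the abundance range, and the gene at 0 counts in both hybrid libraries is drawn as a triangle.

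The depth left a measurable residue for most of these genes. The median gene had 24.3 and 19 counts in the hybrid libraries, against 210.4 and 426.3 counts in the D. simulans libraries, and 59 of the 84 genes had at least 10 counts in both hybrid libraries. A count of 3, taken as the detection floor, equals 0.325 and 0.335 CPM in the hybrid libraries. A single gene, LOC6733112, stood at or under that floor in both of them and was picked out for this after its values were seen. It had 0 and 0 counts in hybrids, against 387 and 1453 counts, or 30.6 and 66.7 CPM, in D. simulans, so it was at least 147-fold lower against the mean floor of 3 counts per library. Its level differed more than 2-fold between the D. simulans libraries. The files and tables used here give it no name.

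The other 83 genes were 4.45- to 42.4-fold lower in hybrids, with a median of 7.18-fold. The genes nearest the threshold were CG10283 inside it, with 5.76 and 6.77 CPM in hybrids against 27.2 and 39.3 CPM in D. simulans, and LOC27208984, with 2.60 and 2.46 CPM against 10.4 and 13.2 CPM. Just outside it lay stj, with 7.31 and 8.28 CPM in hybrids against 33.1 and 48.5 CPM in D. simulans, and LOC6725283, with 3.58 and 3.24 CPM against 14.1 and 18.6 CPM. The genes on both sides of the limit had similar ratios.

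A D. melanogaster partner could be named for 27 of the 84 genes through the orthologue pairs of the study, of which only a part was read here. These genes are called by the symbol of the partner, and the roles given are those known in D. melanogaster. Of the 1705 paired genes among the 6910, these 27 are 1.58%. The 27 named genes had a median of 17.4 CPM in D. simulans and a median ratio of 0.133. The 57 without a name had medians of 19.3 CPM and 0.140, and their highest level in D. simulans was 355.8 CPM, against 163.7 CPM for the named genes. The highest unnamed genes were LOC6731040, with 46.7 and 53.1 CPM in hybrids against 259.4 and 452.1 CPM in D. simulans, and LOC6740171, with 27.6 and 22.9 CPM in hybrids against 254.8 and 322.8 CPM in D. simulans. Of the 84 identifiers, 72 had 7 digits and 12 had 8 digits, against 6169 and 642 of the 6910.

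Transcription factors of the somatic ovary were among the named genes. Traffic jam (tj, LOC27206202), a Maf factor of the somatic gonad cells, had 15.4 and 15.4 CPM of its D. simulans allele in hybrids, against 100.9 and 108.7 CPM in D. simulans. Cut (ct, LOC6725375), a homeodomain factor expressed in follicle cells, had 5.01 and 5.73 CPM in hybrids against 24.5 and 27.7 CPM in D. simulans. Both genes had hybrid libraries close together and far under the D. simulans libraries. E(spl)mbeta-HLH (LOC6729698), a basic helix-loop-helix repressor induced by Notch, was near the low end of the list, with 0.650 and 0.671 CPM in hybrids against 5.14 and 7.49 CPM in D. simulans.

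Of genes that act in signalling, Kekkon 1 (kek1, LOC27206506), a transmembrane inhibitor of EGFR, had 2.57 and 1.96 CPM in hybrids, against 17.9 and 19.2 CPM in D. simulans. Socs36E (LOC6732655), a feedback inhibitor of JAK/STAT signalling, had 3.02 and 3.56 CPM in hybrids against 16.3 and 22.9 CPM in D. simulans. Eye transformer (et, LOC6740243), a receptor-like inhibitor of the same pathway, had 1.08 and 0.224 CPM in hybrids against 8.07 and 11.3 CPM in D. simulans, and it is named here after its values were seen. Ilp6 (LOC27207979), an insulin-like peptide, had 2.33 and 3.78 CPM in hybrids against 21.2 and 24.8 CPM in D. simulans.

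Karmoisin (kar, LOC6728320), an eye colour transporter, was the most abundant named gene, with 28.8 and 28.1 CPM in hybrids against 145.0 and 182.4 CPM in D. simulans. Sosie (LOC6729477), a transmembrane protein of the follicular epithelium, had the lowest ratio of all genes that kept any counts. It had 1.08 and 0.224 CPM in hybrids, from 10 and 2 counts, against 20.8 and 34.6 CPM in D. simulans, from 263 and 754 counts, which made it 42.4-fold lower. Mal-B2 (LOC6732019), a maltase, had 4.37 and 3.99 CPM in hybrids against 24.2 and 26.3 CPM in D. simulans. Gfat1, an enzyme of the hexosamine pathway, had 0.907 and 1.86 CPM in hybrids against 8.21 and 8.89 CPM in D. simulans, and Rpp30, a subunit of RNase P, had 3.35 and 3.32 CPM in hybrids against 14.2 and 16.4 CPM in D. simulans. The hybrid and D. simulans libraries do not overlap for any of them, which the rule fixes.

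The remaining abundant named genes are less well characterised. CG1544 had 2.04 and 1.29 CPM in hybrids against 32.0 and 34.8 CPM in D. simulans, 20.1-fold lower. CG14615 had 6.41 and 6.15 CPM in hybrids against 26.7 and 32.1 CPM in D. simulans, near the upper end of the ratios. For dao the hybrid libraries differed widely, with 8.16 and 1.71 CPM, against 36.8 and 34.0 CPM in D. simulans. CG15529, with 0.837 and 0.559 CPM in hybrids against 13.2 and 19.7 CPM in D. simulans, and CG12910, with 1.52 and 0.671 CPM against 19.4 and 28.8 CPM, were the other named genes at one sixteenth or lower, CG12910 being named after its values were seen.

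D. melanogaster ovaries hold no D. simulans RNA, so counts there on a D. simulans gene measure reads placed on the wrong species. Scaled to the whole library, the wrongly assigned level was a median of 0.181% of the D. simulans level for the 84 genes, against 0.206% for the 6910. No count fell on 27 of the 84 genes in either D. melanogaster library, and 52 had at most 3 counts in both, while 24 had more than 3 in both. The share was above 5% for 13 genes, or 15.5%, against 14.8% of the 6910 genes. The lowered genes therefore had a wrongly assigned share near that of all genes.

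Among named genes the share was highest for Mal-B2, at 25.4%, from 111.3 and 91.9 counts in the D. melanogaster libraries. It was 9.55% for CG15822, from 43.2 and 13.8 counts, and 6.48% for CG11275, from 16 and 13 counts. The abundant unnamed gene LOC6740171 had 140.1 and 62.7 counts in D. melanogaster. For tj these counts were 0 and 1.03, and for sosie and kek1 they were 0 in both D. melanogaster libraries. The hybrid residue of tj, 142 and 138 counts, and that of kek1, 23.7 and 17.5 counts, lay above the wrong-species counts seen in D. melanogaster.

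The residual hybrid counts were set against the number of wrongly placed reads that each hybrid library would hold if its D. melanogaster reads were misplaced at the rate of the D. melanogaster libraries. This number was under 5% of the hybrid counts for 54 of the 84 genes, a count that takes in LOC6733112. That gene had 0 hybrid counts, so its percentage is not defined, and its expected numbers were 0.201 and 0.216. Among genes that kept hybrid counts, the expected number was at least as large as these counts for 6. They were Mal-B2 (133%), CG15529 (131%), CG15822 (107%), LOC6733154 (264%), LOC6729703 (191%) and LOC6736401 (101%), and the value was 52.6% for LOC6734043. These genes were picked by this measure after it was computed. The measure assumes that the D. melanogaster allele is as active in the hybrid as in its parent. For the 27 named pairs the expected number was therefore also taken from the counts of the D. melanogaster copy in the hybrid itself, a measure added after the data were seen. By it the expected wrong counts were 14.2% of the hybrid counts for Mal-B2, 7.18% for CG15822 and 6.79% for CG15529, and 14.2% was the highest value of the 27. For LOC6733154, LOC6729703 and LOC6736401 a residue of the D. simulans allele was not detectable above wrong assignment by the first measure. They have no named partner, so the second measure, which was lower for Mal-B2, CG15822 and CG15529, could not be taken. Whether they kept a residue is therefore not known.

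The D. melanogaster copy of each pair was not used to choose the genes, and it was tested with edgeR's quasi-likelihood test over 8202 D. melanogaster genes between hybrids and D. melanogaster Hmr2. Both contrasts share the hybrid libraries. Of the 27 partners, 25 were tested, and CG1544 and et were too low. In hybrids 16 of the 25 partners fell, or 64.0%, and 0 rose, at a Benjamini-Hochberg adjusted p below 0.05 and at least 2-fold. Over all tested genes 10.3% fell and 2.99% rose. Without adjustment 21 of the 25 partners had a p below 0.05. The median log2 fold change was -2.04 for the partners, 0.00 over all tested genes and -0.02 for the 1667 tested partners of paired genes outside the list, of which 173 fell (10.4%) and 22 rose. Both hybrid libraries lay below both D. melanogaster libraries for 22 partners, as they did for 37.2% of all tested genes, and above them for 1.

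**Figure D2:**
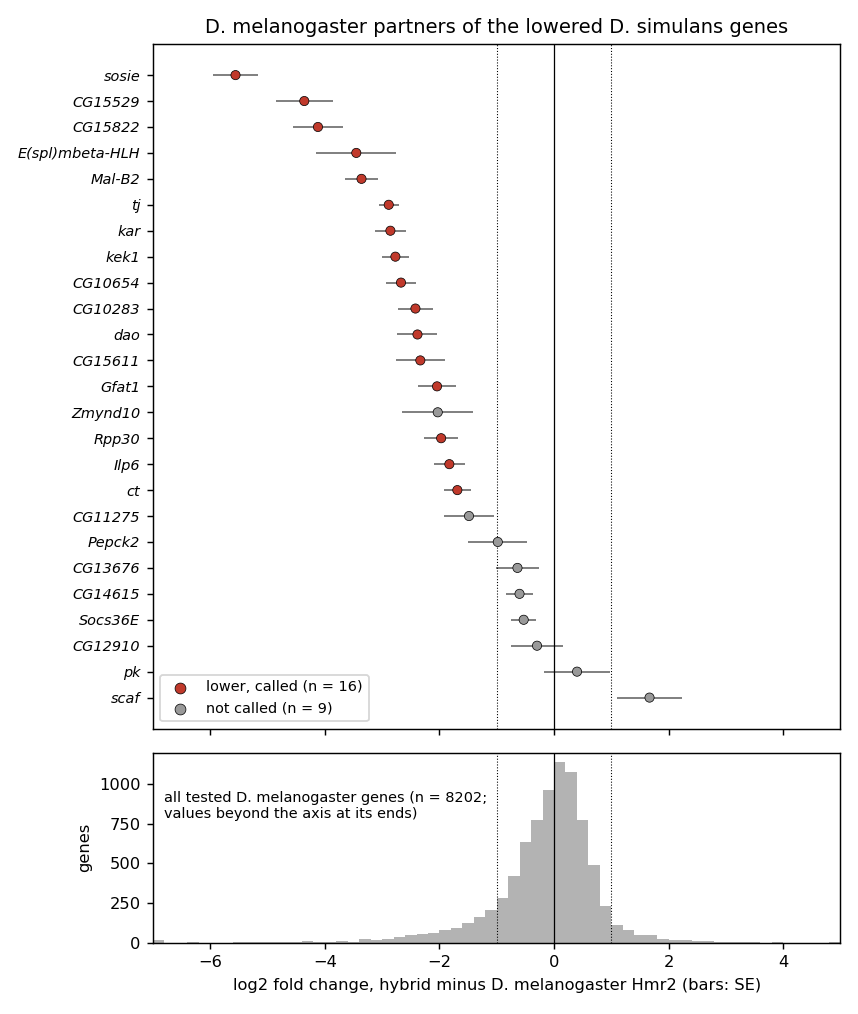
Fitted log2 fold change (hybrid minus D. melanogaster Hmr2, with its standard error as a bar) of the 25 tested D. melanogaster partners, from edgeR over 2 libraries per group, above the distribution over all 8202 tested genes. Red points passed the test and grey points did not, and dotted lines mark a 2-fold change. The values run from -5.56 for sosie to 1.67 for scaf, and the 16 partners that fell are at -1.69 or lower.

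The partners that fell were all expressed above a low level in the D. melanogaster parent. Of the 27 partners, 18 had at least 5 CPM over D. melanogaster genes in both D. melanogaster libraries, and 16 of these 18 fell, with a median log2 fold change of -2.55, against 9.95% of all D. melanogaster genes at that level. The exceptions were CG14615 and Socs36E. The other 9 partners were under that level in at least 1 D. melanogaster library, 7 of them were tested, and 0 of these passed in either direction, with a median of -0.64. Whether the fold changes of these sets differ was not tested, and low counts limit what the test can detect in the second.

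Sosie also fell most on the D. melanogaster side (3R, 24833952 to 24840488, genome Release 6). Its D. melanogaster copy had 0.528 and 1.10 CPM in hybrids, against 41.0 and 29.7 CPM in D. melanogaster, and fell by 5.56 on the log2 scale (SE 0.39, edgeR adjusted p = 0.000497). The hybrid counts were 4 and 9, against 774 and 393. Both copies of sosie were thus close to the floor in hybrid ovaries and well expressed in each parent.

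The D. melanogaster copy of tj (2L, 19464267 to 19467758) had 15.7 and 14.4 CPM in hybrids against 101.7 and 98.4 CPM in D. melanogaster, and fell by 2.89 on the log2 scale (SE 0.17, edgeR adjusted p = 0.000352). For ct (X, 7608428 to 7678859) the values were 10.4 and 7.81 CPM in hybrids against 27.9 and 24.9 CPM in D. melanogaster (log2 fold change -1.69, SE 0.23, edgeR adjusted p = 0.00426). For E(spl)mbeta-HLH (3R, 26005046 to 26006023) they were 1.45 and 0.123 CPM in hybrids against 9.21 and 5.94 CPM in D. melanogaster (log2 fold change -3.45, SE 0.70, edgeR adjusted p = 0.0157). All of these factors fell beyond the spread between libraries, with the hybrid copies of E(spl)mbeta-HLH resting on 11 and 1 counts. Over the alternatives, leaving out a library included, the log2 fold change of E(spl)mbeta-HLH was -5.99 to -2.56.

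Of the inhibitors, kek1 passed the test and Socs36E did not, and the difference between them was not tested. The D. melanogaster copy of kek1 (2L, 12817000 to 12822787) had 3.995 and 3.98 CPM in hybrids against 22.6 and 26.1 CPM in D. melanogaster (log2 fold change -2.77, SE 0.24, edgeR adjusted p = 0.000862). That of Socs36E (2L, 18138675 to 18152417) had 19.9 and 15.2 CPM in hybrids against 23.8 and 21.7 CPM in D. melanogaster, and did not pass the test (log2 fold change -0.53, SE 0.22, edgeR adjusted p = 0.112). The D. melanogaster row of Socs36E also received 90.5 and 219 counts in the D. simulans libraries, 37.9% of the D. melanogaster level after scaling to the whole library, so its reads are poorly separated between the species, and the part of this in its values was not tested. Ilp6 (X, 2331493 to 2334658) had 6.66 and 6.02 CPM of its D. melanogaster copy in hybrids against 22.7 and 17.4 CPM in D. melanogaster (log2 fold change -1.83, SE 0.27, edgeR adjusted p = 0.00512).

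Of the transporters and enzymes, kar (3R, 12682186 to 12689367) had 27.9 and 24.3 CPM of its D. melanogaster copy in hybrids against 206.1 and 131.3 CPM in D. melanogaster (log2 fold change -2.86, SE 0.27, edgeR adjusted p = 0.00115). Mal-B2 (2L, 11849958 to 11852881) had 2.19 and 1.88 CPM in hybrids against 17.6 and 20.5 CPM in D. melanogaster (log2 fold change -3.36, SE 0.28, edgeR adjusted p = 0.000837). Gfat1 (3R, 4126442 to 4137882) had 5.65 and 3.15 CPM in hybrids against 17.9 and 14.7 CPM in D. melanogaster (log2 fold change -2.04, SE 0.33, edgeR adjusted p = 0.00756). Rpp30 (2L, 251039 to 252373) had 7.53 and 6.90 CPM in hybrids against 30.7 and 19.6 CPM in D. melanogaster (log2 fold change -1.97, SE 0.30, edgeR adjusted p = 0.00609). All 4 genes had hybrid levels under both D. melanogaster libraries.

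Among the genes known by CG number, the D. melanogaster copies of CG15529, CG15822, CG10654, CG10283 and CG15611 fell, as did that of dao, with log2 fold changes of -4.36 to -2.33. CG15529 had 0.347 and 0.858 CPM in hybrids against 14.4 and 9.28 CPM in D. melanogaster, from 2.63 and 7 counts against 271 and 123 counts. CG15822 had 1.51 and 0.613 CPM in hybrids against 18.9 and 13.2 CPM in D. melanogaster. CG14615 had 9.76 and 11.7 CPM in hybrids against 13.8 and 15.6 CPM in D. melanogaster and did not pass (log2 fold change -0.60, SE 0.23, edgeR adjusted p = 0.0975). Exons of CG15529, CG14615 and CG10654 are shared over 37.5%, 32.7% and 24.8% of their length with genes on the opposite strand (CG11498, CG14621 and vih), and the sharing of reads between them was not tested. CG10654 is named here after its values were seen.

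**Figure D3:**
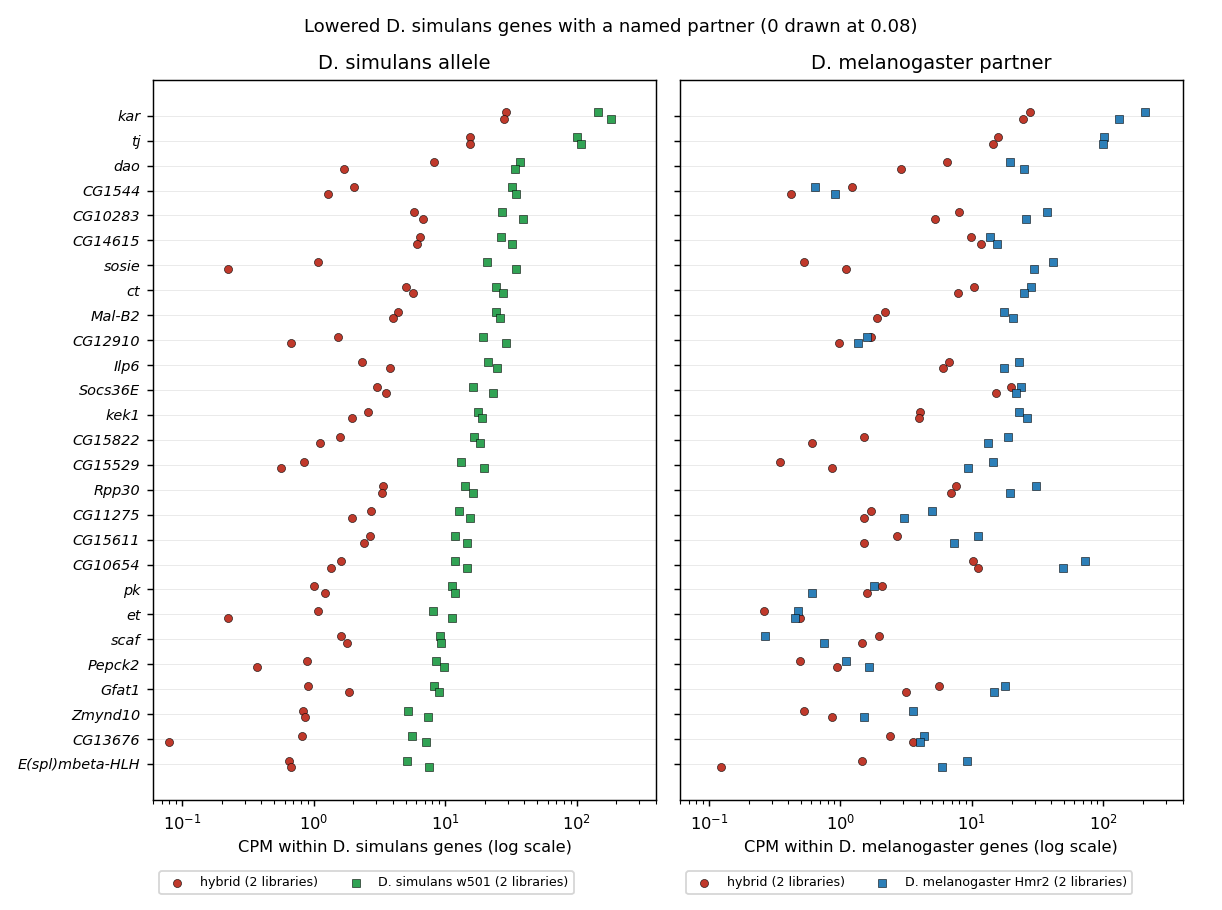
CPM of the D. simulans allele (left) and of the D. melanogaster partner (right) in each library (x axes, log scale) for the 27 named pairs, with hybrid libraries as circles and parental libraries as squares. For tj the hybrid libraries read 15.4 and 15.4 CPM on the D. simulans side and 15.7 and 14.4 CPM on the D. melanogaster side, against 101.7 and 98.4 CPM in D. melanogaster and 100.9 and 108.7 CPM in D. simulans.

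The 9 pairs with a low D. melanogaster partner were CG1544, CG12910, CG11275, pk, et, scaf, Pepck2, Zmynd10 and CG13676, a set formed after the values were seen. Their D. melanogaster copies averaged 0.465 to 4.19 CPM in D. melanogaster, while their D. simulans copies averaged 6.33 to 33.4 CPM in D. simulans. CG1544 (3R, 31196916 to 31203722) was the extreme case, with 1.21 and 0.421 CPM of the D. melanogaster copy in hybrids against 0.636 and 0.905 CPM in D. melanogaster. For prickle (pk), a planar polarity gene, the copy had 2.07 and 1.60 CPM in hybrids against 1.80 and 0.604 CPM in D. melanogaster (log2 fold change 0.40, SE 0.58, edgeR adjusted p = 0.622). For scarface (scaf), which encodes a protein related to serine proteases, it had 1.98 and 1.47 CPM in hybrids against 0.265 and 0.754 CPM in D. melanogaster (log2 fold change 1.67, SE 0.57, edgeR adjusted p = 0.0719). The parents thus differed in these genes, which the way the set was formed favours, and 0 of the 7 tested D. melanogaster copies passed the test in hybrids.

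The counts of both copies were then summed and scaled to CPM of the whole library. For the 18 pairs with an expressed partner the hybrid mean was 0.659 to 27.3 with a median of 4.70, against 7.53 to 165.0 with a median of 23.4 in D. melanogaster and 6.15 to 159.5 with a median of 24.1 in D. simulans. Both hybrid libraries lay below both D. melanogaster and both D. simulans libraries for all 18 of these pairs. The share of other paired genes with this order was not computed, so neither this count nor that of the low pairs below has a background. The sum holds the D. simulans copy, which the rule chose to be low. D. simulans genes also took 53.6% of the counts in hybrids and 2.86% in D. melanogaster, so an unchanged D. melanogaster copy reads lower in hybrids on this scale. CG14615, whose partner did not pass the test, had 7.92 and 8.79 in hybrids against 13.4 and 15.2 in D. melanogaster. Both comparisons and the ratio to the parents are therefore a description. The hybrid level was a median of 0.168 of the mean of the parents, with a range of 0.0241 to 0.399. For the 9 low pairs the hybrid median was 1.27, against 1.37 in D. melanogaster and 9.41 in D. simulans, and both hybrid libraries lay below all 4 parental libraries for 4 of the 9. CG1544, CG12910, pk, et and scaf were the exceptions.

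**Figure D4:**
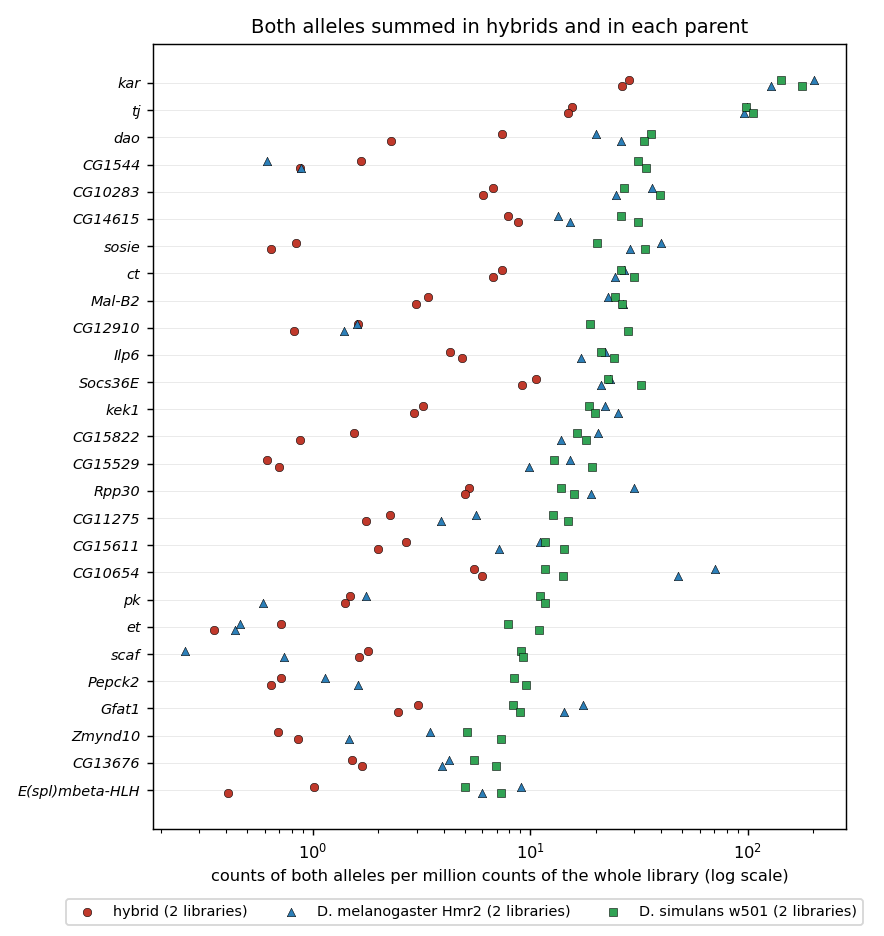
Counts of both copies of each of the 27 named pairs as CPM of the whole library (x axis, log scale), with 2 hybrid, 2 D. melanogaster Hmr2 and 2 D. simulans w501 libraries per gene. The hybrid points of kar, tj, sosie and the other expressed pairs lie left of both parents, while for scaf both hybrid points lie right of the D. melanogaster points and left of the D. simulans points.

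Within the hybrids the D. simulans copy made up a median of 51.9% and 42.9% of the counts of the 27 pairs in the 2 libraries. Among the other paired genes it was 55.2% and 52.3%. For tj the share was 54.5% and 54.0%, and for kar 55.7% and 55.9%, so both copies of these genes remained at nearly equal levels in hybrids. The share was low for Socs36E, at 15.5% and 20.4%, and for CG10654, at 16.2% and 11.8%. Reads of Socs36E are poorly separated between the species and CG10654 shares exons with vih, and the part of this in the shares was not tested. For sosie it was 71.4% and 18.2%, resting on 14 and 11 counts of both copies.

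The partners lay on every large chromosome arm, with 7 on 2L, 6 on 2R, 4 on 3L, 6 on 3R and 4 on the X. These are 25.9%, 22.2%, 14.8%, 22.2% and 14.8% of the 27, against 16.2%, 19.6%, 20.4%, 23.05% and 19.9% of all paired genes at 5 CPM for the same arms. No test was made of these counts.

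Genes that act in follicle cells were then read from a list of 39 symbols, of which 11 had a D. simulans copy that was paired and reached 5 CPM. Of these 11, 5 were among the lowered genes, namely tj, ct, kek1, Socs36E and E(spl)mbeta-HLH, against 1.58% of all paired genes. The lists were drawn up with earlier results of these data known, so this count is a description only. Other genes of the list were lower without meeting the rule, such as br, a transcription factor of the ecdysone response, with 5.63 and 9.22 CPM in hybrids against 31.01 and 41.3 CPM in D. simulans. The JAK/STAT receptor gene dome had 205.5 and 201.3 CPM in hybrids against 200.5 and 178.4 CPM in D. simulans. On the D. melanogaster side 15 of 34 tested genes of the list fell and 3 rose, against 10.3% and 2.99% of all tested genes, and the summed level was 1479 and 1496 CPM in hybrids against 1388 and 1663 CPM in D. melanogaster. The summed levels of the groups overlapped, but they were weighted to a few abundant genes. The D. melanogaster copy of bun alone had 418.5 and 450.1 CPM in hybrids against 269.3 and 369.5 CPM in D. melanogaster. The overlap therefore does not describe the follicle cell genes as a set.

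The other lists had at most 11 paired genes at 5 CPM, so that at the share of 1.58% over all paired genes fewer than 1 would be among the 84 in any of them. The rule took in 0 of 10 germline genes, whose median ratio was 0.893, 0 of 11 eggshell genes, 0 of 2 yolk genes, 0 of 1 ecdysone gene, 0 of 5 muscle genes, 0 of 2 genes of fat body and haemocytes and 0 of 1 testis gene. Ilp6 stood in the neuron list, as 1 of 2 genes at 5 CPM. The other was Ilp8, at a ratio of 1.84, and both encode peptides of the insulin family, so this count does not describe neuronal markers. The median ratio of the eggshell genes was 2.02 but rested on 1 library, since it was 1.08 with hybrid replicate 1 alone and 2.74 with hybrid replicate 2 alone. The ratios of the 11 genes were also mixed, from 0.267 for ndl to 3.10 for CG13084. On the D. melanogaster side 22 of 27 tested eggshell genes and all 4 tested yolk genes fell and 0 rose, against 10.3% lower and 2.99% higher over all tested genes. Each side is set against its own parent, so these directions do not compare the copies within hybrids. Cp36 had 196.5 and 286.1 CPM in D. simulans against 2510 and 1166 CPM in D. melanogaster. In hybrids its D. simulans copy had 261.3 and 729.9 CPM and its D. melanogaster copy 226.6 and 616 CPM. For ndl the parents were alike, with 133.0 and 93.5 CPM in D. simulans and 105.0 and 96.8 CPM in D. melanogaster.

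The replicate libraries of a parent differed in these genes. In the D. simulans libraries 75 of the 84 genes (89.3%) were higher in replicate 2, against 42.5% of the 6910 genes, and the ratio of replicate 2 to replicate 1 had a median of 1.19, against 0.979. In hybrids 55 of the 84 (65.5%) were higher in replicate 1, against 60% of the 6910. Of the 18 expressed partners 14 (77.8%) were higher in D. melanogaster replicate 1, against 39.9% of all D. melanogaster genes at 5 CPM. The share of TPM that fell outside the listed genes moved with this. It was 28.3% and 32.5% in the hybrid libraries, 23.6% and 42.5% in the D. melanogaster libraries and 46.1% and 24.4% in the D. simulans libraries, so that in each parent the library with the smaller unlisted share had the higher levels of these genes. Its part in the result was not tested. Among the 84 genes the ratio of D. simulans replicate 2 to replicate 1 was at most 2.18.

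**Figure D5:**
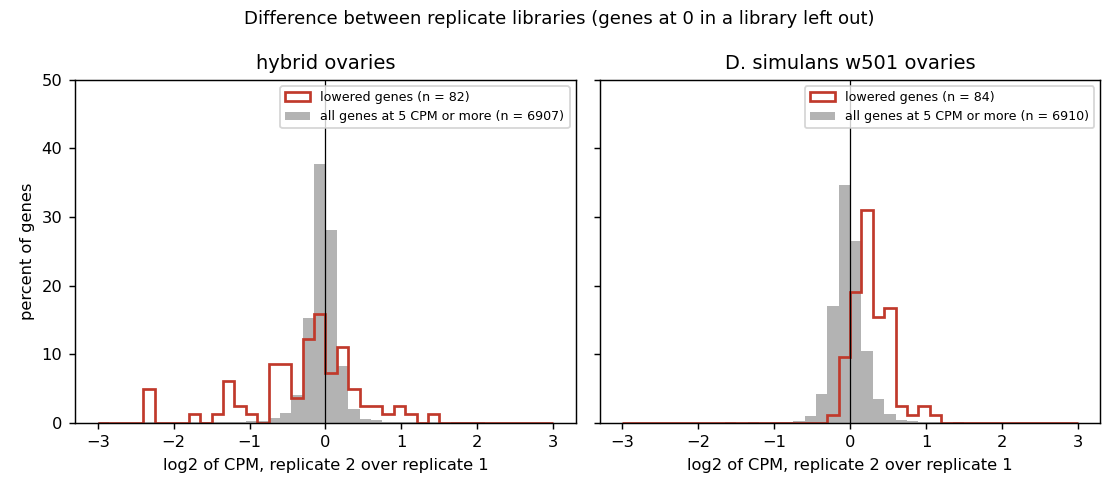
Share of genes (y axis, percent) by the log2 ratio of CPM in replicate 2 over replicate 1 (x axis), for hybrid ovaries (left) and D. simulans w501 ovaries (right). Outlines are the lowered genes and grey bars all genes at 5 CPM or more, without genes at 0 in a library. In D. simulans the lowered genes are shifted to the right, with 75 of 84 higher in replicate 2.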

How the data were processed

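Poly(A)-selected ovarian RNA was quantified by the authors with kallisto 0.50.0, the version given in the submitters' notes, in single-end mode against merged RefSeq transcripts of D. melanogaster and D. simulans, and was summed per protein-coding gene with tximport. The deposited values are estimated counts and TPM per gene. The library kit was directional, but no strand option is stated for the quantification, so overlapping genes may share reads. The count column of D. melanogaster replicate 2 carries a repeated TPM name and was identified by its values, since the count divided by length is proportional to TPM. 6 length columns that name no sample were not used. The methods call the libraries biological replicates.

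Estimated counts were rounded and tested with edgeR 4.0.16 (R 4.3.3; glmQLFit and glmQLFTest, two-sided) over all D. melanogaster genes that passed filterByExpr (minimum count 10), with TMM factors and Benjamini-Hochberg adjustment, in the 2 hybrid and 2 D. melanogaster libraries. A gene was called at an adjusted p below 0.05 and a log2 fold change of at least 1 in size. DESeq2 1.42.0, other filters and scalings, a replicate block and leaving out each library were the alternatives.

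Names of D. simulans genes came from the orthologue pairs of the study, which chose them by top BLAST hit. 1999 pairs were read, a part of that table, and 1995 were tied to 1 feature each, by equality within 0.001 of all 6 counts of the D. simulans copy and by the D. melanogaster symbol. The printed counts served as a key only. Coordinates are those of RefSeq, Release 6. The wrongly assigned share is the mean level in CPM of the whole library in D. melanogaster Hmr2, as a percentage of that in D. simulans w501. The floor of 3 counts covers counting error only, while the standard errors come from the edgeR fit.

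The genes, gene lists and tests were chosen with earlier results of these data known. Named genes are the 6 most abundant in D. simulans, the 4 most abundant at the floor (0 found with a name), the 5 lowest and 5 highest fold changes among partners that passed, the 3 highest wrongly assigned shares, all list genes, the 2 most abundant unnamed genes and the 2 closest to the threshold on each side. Others are marked in the text as named after their values were seen.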

Additional observations from a re-analysis of the deposited data

Results flagged for a closer look

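The gene scaf was the only one of the 27 pairs whose copies moved in opposite directions in every library. Its D. simulans copy had 1.63 and 1.79 CPM in hybrids against 9.09 and 9.23 CPM in D. simulans, while its D. melanogaster copy had 1.98 and 1.47 CPM in hybrids against 0.265 and 0.754 CPM in D. melanogaster. On the log2 scale of mean CPM the D. melanogaster copy was 1.76 higher in hybrids, from 15 and 12 counts against 5 and 10 counts. The difference between the copies was not tested. The D. simulans libraries placed 3.02 and 5.02 counts on the D. melanogaster row, 46.1% of the D. melanogaster level after scaling to the whole library, and the part of this in the result was not tested.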

How the results depend on the processing

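The number of lowered genes depended on the limits of the rule. It was 154 at 1 CPM, 21 at a ratio of one eighth and 134 with means in place of the extremes, against 84 as described. It was 96 to 138 when a library was left out, with 134 without hybrid replicate 1 and 138 without D. simulans replicate 1. The rule sets the higher hybrid value against the lower D. simulans value, so leaving out a library can only add genes. All 84 were kept each time, and this range does not measure dependence on a library. TMM factors, DESeq2 size factors and totals over both species gave 103, 104 and 68 genes, which shared 84, 84 and 68 with the list. The number at the floor was 38 at 1 CPM and 2 to 8 when a library was left out, where it too can only stay or rise. The median ratio was 0.139 to 0.16 when a library was left out. Wrong assignment exceeded 1% for 27 genes, and 45 genes were above 5% with CPM over D. simulans genes alone. The partners that fell numbered 11 to 18 over the alternatives, with 11 of 15 when pairs above 5% wrong assignment on either side were left out, and the 16 called partners kept their call in each alternative in which they were tested. The replicate numbers share only a number (correlation of same-numbered deviations 0.00 over 8202 genes), and with the replicate block 18 partners fell, CG11275 and Zmynd10 being added, and 1 (scaf) rose. Leaving out a library gave 16 to 18 lower, 0 to 1 higher and a median of -2.44 to -1.84. The log2 fold change of CG12910 was -0.72 to 0.046 and that of pk -0.19 to 1.49 when a library was left out, with the sign turned without hybrid replicate 2 for CG12910 and without D. melanogaster replicate 2 for pk. With 2 libraries per group and medians of 24.3 and 19 hybrid counts, small differences among these genes are not detectable.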
